A study of Pseudotsuga menziesii with 10 samples.

Results

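The transcripts described here were abundant in the cone scales of Douglas-fir (Pseudotsuga menziesii), at least 4-fold lower in the cone bracts, and under 1 FPKM in every library of the megagametophyte. FPKM, a level per length, corrects the number of sequenced fragments for the length of the contig and the size of the library. A rule on the deposited values chose them: 10 FPKM or more in scales, a difference of at least 2 log2 units between scales and bracts, and under 1 FPKM in all 8 megagametophyte libraries. Of the 54889 assembled transcripts (contigs) in the table, 89 met it. Of the 8700 contigs at 10 FPKM or more in scales, 316 (3.63%) were 4-fold or more higher in scales than in bracts, and 227 of these reached 1 FPKM in at least 1 megagametophyte library. Over all 54889 contigs, 1.32% were 4-fold or more higher in scales. For these shares, and for the sets compared below, 4-fold means 2 units of the deposited scale, taken here as log2(FPKM + 1). With 1 FPKM added to both levels, contigs can be over 4-fold apart on linear FPKM and not be counted.

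Polyadenylated RNA was sequenced from 1 library of whole scales and 1 of bracts, both from developing cones collected on 26 May 2011. It was also sequenced from 8 pools of dissected megagametophytes, collected on 10, 22 and 30 June and 6 July 2011 from cones that had been given a pollen mix or left unpollinated. All material came from several ramets (vegetative copies) of 1 clone, genotype 970, grown in a seed orchard in British Columbia, so nothing here speaks of variation between trees. Each tissue, and each combination of date and pollination state, had 1 library. Per the labels, the pollinated pools of megagametophytes may hold embryos, and the labels do not say whether the ovules were taken off the scales. Scales and megagametophytes differ in collection date as well as in tissue, and the 2 cannot be told apart.

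In conifers each seed cone is a stack of paired organs. The bract is a leaf-like organ, and in its axil stands the ovuliferous scale, which carries the ovules on its upper face and later becomes the woody plate of the ripe cone. Scale and bract are diploid tissue of the mother tree. The megagametophyte is the haploid body inside the ovule that bears the egg cells and later feeds the embryo. Neither the table nor the other sources used here pair the contigs with gene names or sequences, so contigs go by identifier and no role is given to them. For the same reason scales and bracts could not be checked against defining marker genes.

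The 89 contigs were spread over a wide range of abundance in scales. The lowest stood at 10.0 FPKM, the median at 23.6 FPKM and the highest at 896.6 FPKM. In scales 10 contigs were at 100 FPKM or more, 27 between 30 and 100 FPKM, 17 between 20 and 30 FPKM, and 35 under 20 FPKM. Together they summed to 5146 FPKM in scales, 1.07% of all FPKM in that library, against 254.7 FPKM and 0.0504% in bracts. A few contigs carried much of this sum: the 5 highest made up 42.3% of it and the 10 highest 57.2%. Since the rule chose the contigs by these levels, they are given as a description, without a test.

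The contig highest in scales, GAZW02035022, reached 896.6 FPKM in scales, rank 21 of all contigs, and 1.5 FPKM in bracts. In pollinated megagametophytes it was at 0.0425, 0.0425, 0.0497 and 0.275 FPKM on 10, 22 and 30 June and 6 July, and in unpollinated ones at 0.0425 FPKM on all 4 dates. The pollinated library of 6 July was thus the only one of the 8 with a value over 0.1 FPKM. GAZW02037646 came next, with 412.0 FPKM in scales against 0.659 in bracts. Its values in the 4 pollinated libraries, by date, were 0.0497, 0.0425, 0.0353 and 0.0353 FPKM, and in the 4 unpollinated ones 0.0497, 0.0353, 0.0353 and 0.0425 FPKM. These 2 contigs also had the largest differences between scales and bracts, 8.49 and 7.96 log2 units on the log2(FPKM + 1) scale. On linear FPKM they were 599-fold and 626-fold higher in scales, each from a single pair of libraries.

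**Figure D1:**
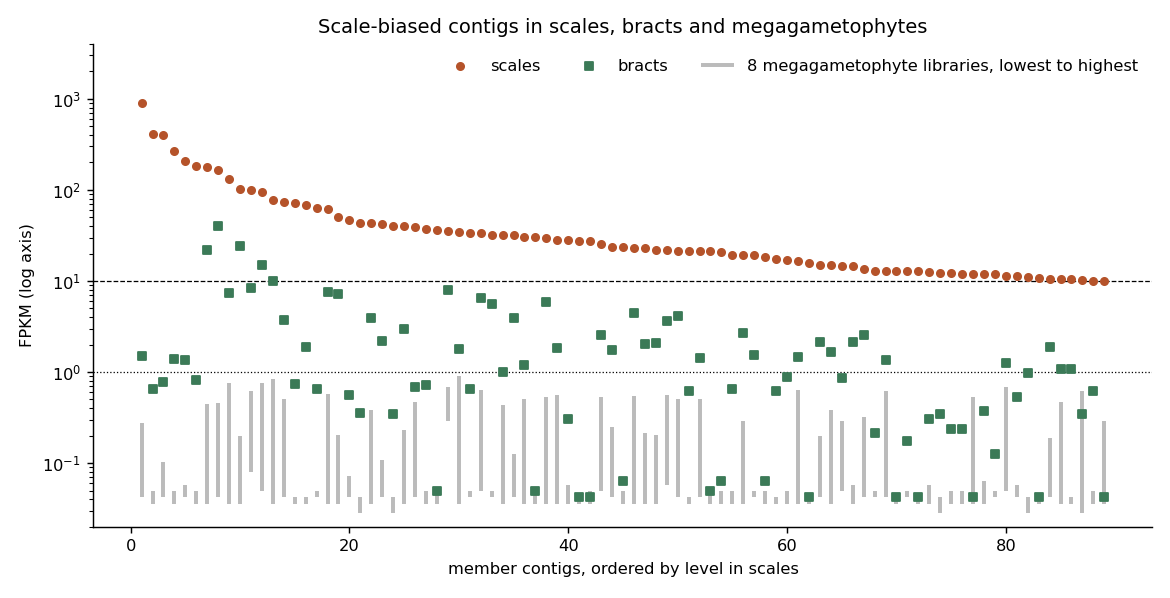
Levels of the 89 scale-biased contigs in FPKM (log axis), ordered along the horizontal axis by their level in scales. Circles are scales, squares bracts, and grey bars run from the lowest to the highest of the 8 megagametophyte libraries; the dashed line marks 10 FPKM and the dotted line 1 FPKM. Levels in scales run from 10.0 to 896.6 FPKM while levels in bracts are scattered from 0.0425 to 40.1 FPKM along the whole order.

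What was left in bracts differed far more between contigs than the rule required. The median level in bracts was 1.08 FPKM, with quartiles of 0.347 and 2.53 FPKM. In bracts 14 contigs were under 0.1 FPKM, 29 between 0.1 and 1 FPKM, 41 between 1 and 10 FPKM, and 5 at 10 FPKM or more. The 14 values under 0.1 FPKM repeated from contig to contig, between 0.0425 and 0.0644 FPKM. Differences among them are not read as differences in transcript level. The difference between scales and bracts was 3.39 log2 units at the median and reached 3 log2 units (8-fold) in 57 contigs, 4 in 26, 5 in 10 and 6 in 6. For the 75 contigs at 0.1 FPKM or more in bracts, the linear ratio of scales to bracts was 16.1 at the median and ran from 4.16 to 626.

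Among the contigs most abundant in scales, levels in bracts ranged widely. GAZW02074324, eighth in scales at 166.7 FPKM, had the highest level of all members in bracts, 40.1 FPKM, and was barely over the 4-fold limit. GAZW02009249, at 185.1 FPKM in scales, had 0.815 FPKM in bracts. Both were picked for this contrast after their values were seen.

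The opposite set, chosen by the same limits with scales and bracts exchanged, held 214 contigs. Median levels in the favoured tissue were 23.6 FPKM for the scale-biased and 18.4 FPKM for the bract-biased contigs. The medians in the other tissue were 1.08 FPKM for the scale-biased and 1.26 FPKM for the bract-biased contigs. Of the scale-biased contigs 15.7% were under 0.1 FPKM in the other tissue, and of the bract-biased ones 15.0%. The share at 100 FPKM or more in the favoured tissue was 11.2% for scale-biased and 7.94% for bract-biased contigs. Of all contigs with a 4-fold bias and 10 FPKM, the limit of 1 FPKM in megagametophytes kept 28.2% of 316 for scales and 45.8% of 467 for bracts. With 1 library per tissue no difference between the sets could be tested.

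The 227 scale-biased contigs that the limit left out were not merely just over it. Their highest megagametophyte value had a median of 21.2 FPKM, and 159 of them reached 10 FPKM. Their median level in scales was 22.3 FPKM, against 2.23 in bracts.

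Below 1 FPKM the megagametophyte libraries still held traces of some members. A trace is taken here as 0.1 FPKM or more, a level set after the values were seen. No trace in any of the 8 libraries was found for 44 of the 89 contigs. Of the rest, 8 had a trace in 1 library, 9 in 2, 4 in 3, 8 in 4, 7 in 5, 3 in 6, 5 in 7 and 1 in all 8. The one with a trace in every library, GAZW02042191, is named because of its values. It had 35.5 FPKM in scales against 7.88 in bracts. Its values by date were 0.347, 0.338, 0.414 and 0.693 FPKM in pollinated and 0.292, 0.301, 0.474 and 0.495 FPKM in unpollinated megagametophytes.

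The values of the 44 contigs with no trace repeated from contig to contig. They lay between 0.0281 and 0.0718 FPKM, that is, between 0.04 and 0.10 on the deposited log scale, and formed 19 distinct series of 8 numbers. Of the 44, 41 had a series that at least 10 contigs of the table shared to the last digit, and 7 had the most common one, which 830 contigs shared. Over all libraries of the megagametophyte, 5988 contigs of the deposited data were under 0.1 FPKM in all 8 libraries and formed 512 series. Differences within this range are therefore not read as differences in transcript level.

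Contigs with traces in megagametophytes had higher median levels in bracts. The 24 contigs with a trace in 4 libraries or more had a median of 3.69 FPKM in bracts, with an upper quartile of 7.44 FPKM. The 21 with a trace in 1 to 3 libraries had a median of 2.07 FPKM, and the 44 with none had 0.366 FPKM, with quartiles of 0.0644 and 0.723 FPKM. At 1 FPKM or more in bracts were 23 of the 24, 16 of the 21 and 7 of the 44. Under 0.1 FPKM in bracts were 12 of the 44 without a trace and 2 of the 45 with one. Some higher bract values repeated as well. GAZW02003304 and GAZW02006315, with the same 8 megagametophyte values, both had 0.240 FPKM in bracts. Low bract values, here and below, may thus lie near the smallest level that could be seen, which was not tested. Medians in scales were closer, at 33.0, 21.6 and 20.0 FPKM. In the bract-biased set the level left in scales had the same order of medians, at 2.66 FPKM with traces in 4 libraries or more, 1.48 FPKM in 1 to 3 and 0.879 FPKM in none.

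The order of the medians in bracts was the same at each level of abundance in scales. Among contigs under 20 FPKM in scales, the median in bracts was 1.35 FPKM for the 13 with a trace and 0.324 FPKM for the 22 without. Between 20 and 50 FPKM in scales it was 2.38 FPKM for 20 contigs with a trace and 0.301 FPKM for 15 without. At 50 FPKM or more it was 7.95 FPKM for 12 contigs with a trace and 0.815 FPKM for 7 without. Spearman's rho between the level in bracts and the mean over the 8 megagametophyte libraries was 0.67 across the 89 contigs. With the level in scales it was 0.18. On the log2 scale Pearson's r was 0.56 and 0.12. For 44 of the 89 contigs that mean holds only values under 0.1 FPKM, and across the other 45 rho with the level in bracts was 0.22. The contigs share the libraries, and contig length, which sets the smallest level that can be seen, is not given, so these are descriptions without a p. In the bract-biased set rho between the level left in scales and the megagametophyte mean was 0.20.

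**Figure D2:**
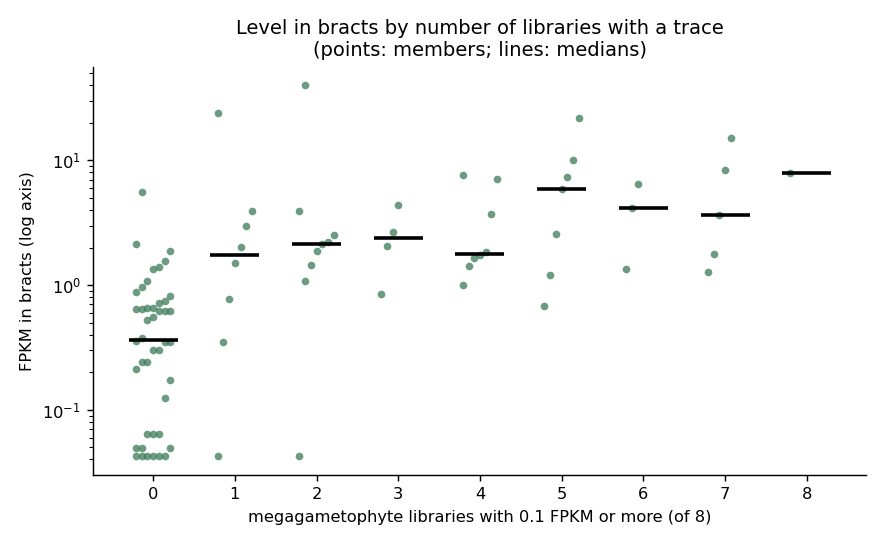
FPKM in bracts (log axis) of each of the 89 scale-biased contigs, by the number of megagametophyte libraries, from 0 to 8, in which it stood at 0.1 FPKM or more; lines are medians. The 44 contigs without a trace have a median of 0.366 FPKM in bracts, and the single contig with a trace in all 8 libraries stands at 7.88 FPKM.

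Traces were fewest on 22 June and most frequent on 6 July in both pollination states. In the order of the 4 dates, a trace was seen for 19, 12, 23 and 34 members in pollinated megagametophytes. In unpollinated megagametophytes the numbers were 20, 10, 19 and 29. A trace in both libraries of the same date was seen for 11, 8, 13 and 24 contigs. Summed over the 89 contigs, levels by date were 8.89, 5.53, 11.1 and 12.28 FPKM in pollinated and 10.7, 6.17, 10.5 and 13.6 FPKM in unpollinated megagametophytes. These sums were 0.107% to 0.265% of the sum in scales, and values under 0.1 FPKM are part of them.

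The low point of 22 June was common to the whole table. Contigs at 0.1 FPKM or more made up 65.0% of all 54889 in both libraries of 22 June, and 66.4% to 73.2% in the other 6. Among the 15327 contigs under 1 FPKM in all 8 libraries, a trace was seen for 16.3% in pollinated and 18.5% in unpollinated megagametophytes on 22 June. The shares were 30.4% and 34.9% for 10 June. For 30 June they were 36.5% and 21.9%, and 6 July had 34.5% and 37.4%. The part of this common low point in the counts of the 89 contigs was not tested. Reads per library are not given, so depth cannot be set beside these counts. In bulk RNA fewer cells of a type and less RNA per cell cannot be told apart.

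The share of members with a trace on 6 July exceeded that on 10 June, at 38.2% and 21.3% in pollinated and 32.6% and 22.5% in unpollinated megagametophytes. For bract-biased contigs the shares on 6 July and 10 June were 23.4% and 20.6% in pollinated, and 25.7% and 23.8% in unpollinated megagametophytes. For the 505 cone contigs that were less than 4-fold apart and under 1 FPKM in megagametophytes they were 55.0% and 49.3%, and 58.0% and 49.9%. Among all contigs under 1 FPKM in the 8 libraries they were 34.5% and 30.4% in pollinated, and 37.4% and 34.9% in unpollinated megagametophytes. The difference between the sets was not tested.

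**Figure D3:**
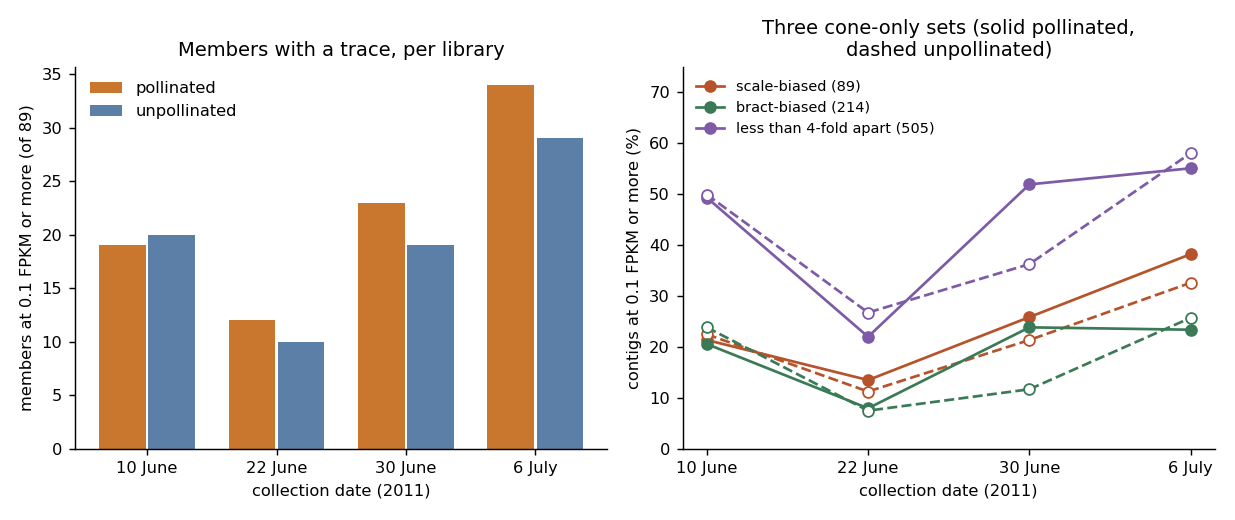
Left, number of the 89 scale-biased contigs at 0.1 FPKM or more in each megagametophyte library, by collection date and pollination state. Right, percent of contigs at 0.1 FPKM or more in the scale-biased, bract-biased and less than 4-fold apart sets; all are lowest on 22 June, and 38.2% and 32.6% of the scale-biased contigs had a trace on 6 July.

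The course over dates was tested contig by contig, since the rule limits the level in megagametophytes but not its direction. A line over days was fitted to the 8 libraries with pollination state as a term, for all 54889 contigs, with limma and Benjamini-Hochberg adjustment. Of the 89 contigs 1 passed (1.12%), against 15% of all contigs (6.17% upward and 8.81% downward) and 1.94% of the contigs under 1 FPKM in all 8 libraries. The share lay near the last of these. That background was not matched in level: 9339 of its 15327 contigs reached 0.1 FPKM in some megagametophyte library, against 45 of the 89 members. Without adjustment 6 of the 89 had a limma p under 0.05, against 16325 of all 54889 contigs. The median fitted change over 26 days was 0.01 log2 units among the members and 0.01 among all contigs. For 44 of the 89 it rests only on values under 0.1 FPKM. With values under 0.1 FPKM set to 0.1 FPKM, a setting chosen after seeing the data, it was 0.06 among the 45 other members. It was then 0.02 among all 48901 contigs kept and 0.02 among the 9339 of them under 1 FPKM in all 8 libraries. The difference between these medians was not tested.

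The contig that passed, GAZW02027037, rose over the dates. It stood at 0.0497, 0.0644, 0.376 and 0.395 FPKM in pollinated and 0.0425, 0.149, 0.464 and 0.376 FPKM in unpollinated megagametophytes on 10, 22 and 30 June and 6 July. In both states the last 2 dates lay above the first 2 without overlap. The fitted change was 0.47 ± 0.10 (SE) log2 units over 26 days, with a limma adjusted p of 0.0244. Its level was 38.7 FPKM in scales against 0.682 in bracts. The call was lost without either library of 10 June (limma adjusted p 0.0912 without the pollinated and 0.116 without the unpollinated one), without either of 6 July (0.0684 and 0.0571), when both libraries of a date were averaged (0.225), and among contigs with a mean of at least 0.1 FPKM (0.0904). Over all alternatives tried the adjusted p ran from 0.0127 to 0.225, with a rise in each. The 2 libraries of a date were collected together, so the p is too small by an unknown amount. Without a library of 10 June or 6 July fewer contigs of the whole table passed as well. When both libraries of a date were averaged, no contig of the table passed, so that setting could not single out this contig. Among contigs with a mean of at least 0.1 FPKM, 9531 of 45934 passed.

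No member passed for a fall over the dates. The smallest p in that direction belonged to GAZW02058722, at 0.558, 0.165, 0.292 and 0.0570 FPKM in pollinated and 0.505, 0.248, 0.248 and 0.266 FPKM in unpollinated megagametophytes. Its highest value was on 10 June in both states. The fitted change was -0.36 ± 0.11 log2 units (limma adjusted p 0.0841). GAZW02002932 came next, tied with GAZW02026883, which has the same 8 values, and is named as the lower number. Its values ran from 0.0281 to 0.0425 FPKM, all under 0.1 FPKM (limma adjusted p 0.222).

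**Figure D4:**
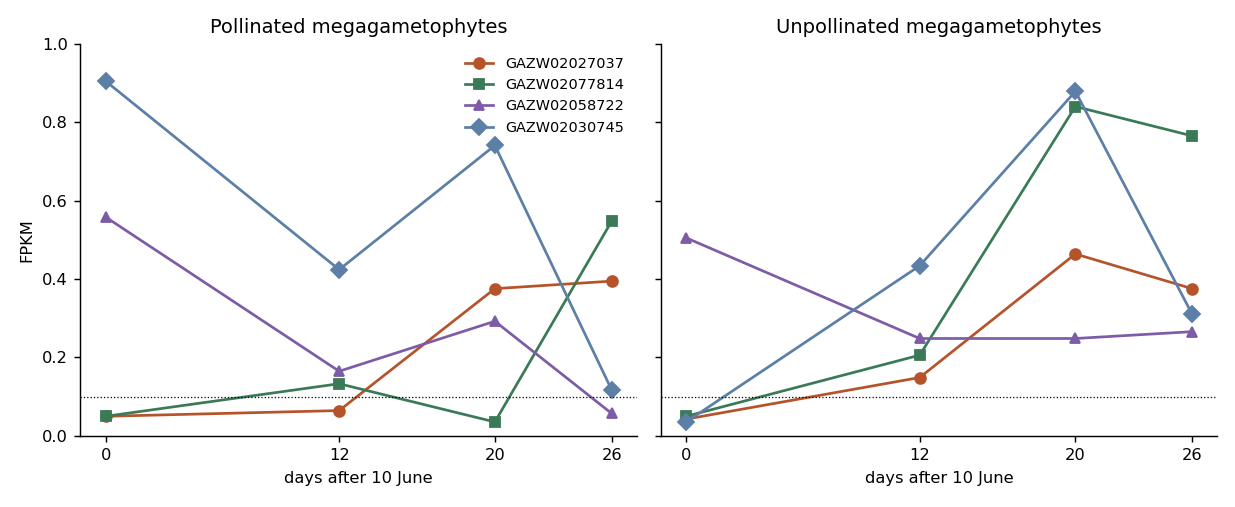
FPKM (linear axis) of 4 scale-biased contigs over the days after 10 June in pollinated (left) and unpollinated (right) megagametophytes, 1 library per point; the dotted line marks 0.1 FPKM. GAZW02027037 lies at or under 0.149 FPKM at the first 2 dates and between 0.376 and 0.464 FPKM at the last 2 in both panels, while GAZW02030745 differs between the panels on 10 June.

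The highest single values in megagametophytes belonged to GAZW02030745 and GAZW02077814. GAZW02030745 had 0.905, 0.424, 0.741 and 0.117 FPKM in pollinated and 0.0353, 0.434, 0.879 and 0.310 FPKM in unpollinated megagametophytes. The states were near each other on 22 June and far apart on 10 June. GAZW02077814 had 0.0497, 0.133, 0.0353 and 0.548 FPKM in pollinated and 0.0497, 0.206, 0.840 and 0.765 FPKM in unpollinated megagametophytes. It was high on 6 July in both states and on 30 June in the unpollinated one alone. Its fitted change over 26 days was 0.64 ± 0.19 log2 units and did not pass (limma adjusted p 0.0732). Without the pollinated library of 30 June 2 members passed for date, GAZW02077814 (limma adjusted p 0.0470) and GAZW02027037.

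Pollinated and unpollinated megagametophytes were compared over the 4 dates with date as a block, again over all 54889 contigs. None of the 89 contigs passed in limma (0% of the members and 0% of all contigs). None of the 89 had an unadjusted p under 0.05, against 1899 of all 54889 contigs. The smallest p values belonged to GAZW02038554 and GAZW02103248 on the pollinated side and to GAZW02043217 and GAZW02077814 on the unpollinated side. GAZW02038554 had 0.149, 0.0425, 0.206 and 0.110 FPKM in pollinated and 0.0353 to 0.0497 FPKM in unpollinated megagametophytes, a difference of 0.10 ± 0.04 log2 units. GAZW02103248 had 0.0792 to 0.248 FPKM in pollinated and 0.0425 to 0.173 FPKM in unpollinated megagametophytes. The differences were 0.13 ± 0.06 for GAZW02103248, -0.07 ± 0.04 for GAZW02043217 and -0.28 ± 0.16 for GAZW02077814, all with a limma adjusted p of 0.916. Without either library of 30 June the difference of GAZW02077814 was -0.09 and that of GAZW02038554 0.07, and without either of 10 June that of GAZW02043217 was -0.03.

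A course over dates that differed between the states was sought with the interaction of day and pollination. No member passed in limma (0% of the members and 0% of all contigs). An unadjusted p under 0.05 was found for 2565 of all 54889 contigs and for 2 of the 89 members. These 2 were GAZW02052147 and GAZW02039069, with differences of 0.63 ± 0.20 and 0.65 ± 0.25 log2 units over 26 days and limma adjusted p of 1. GAZW02052147 was over 0.1 FPKM on 6 July in pollinated megagametophytes, at 0.257 FPKM, and on 10 June in unpollinated ones, at 0.385 FPKM. In the other direction the smallest p values were those of GAZW02030745, at -1.10 ± 0.55, and GAZW02051543, at -0.24 ± 0.16 log2 units. These values rested largely on single libraries. Without the unpollinated library of 10 June they were 0.21 for GAZW02052147, 0.02 for GAZW02039069, -0.42 for GAZW02030745 and -0.51 for GAZW02051543. Without the unpollinated library of 6 July they were -1.69 for GAZW02030745 and -0.0037 for GAZW02051543.

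Some of the 89 contigs had neighbouring numbers in the assembly. Within steps of at most 5 numbers, 25 of them (28.1%) formed 10 groups of 2 to 4 contigs. This share lay between the 24.3% of the bract-biased contigs and the 29.5% of those less than 4-fold apart. The sources used here do not say how numbers were given, and how reads were divided among contigs of 1 gene is not known.

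The most abundant group had 4 consecutive numbers, GAZW02016146 to GAZW02016149, and is named because of its values. In scales these contigs had 264.0, 400.7, 205.5 and 72.5 FPKM and in bracts 1.39, 0.778, 1.35 and 0.741 FPKM, in the order of their numbers. The 4 together held 942.8 FPKM, 18.3% of the sum of the 89 contigs in scales, and 4.26 FPKM in bracts. In the 8 megagametophyte libraries 1 of the 32 values reached 0.1 FPKM, the 0.102 FPKM of GAZW02016147 in the pollinated library of 6 July. The contig with the preceding number was low in both cone tissues, with 0.0497 FPKM in scales and 0.495 in bracts (-0.51 log2 units, scales minus bracts). It had up to 1.41 FPKM in megagametophytes.

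Another group, chosen after its values were seen, surrounds GAZW02027037, the contig that rose over the dates. All 7 contigs of the table numbered from GAZW02027035 to GAZW02027041 were 4-fold or more higher in scales than in bracts, by 2.43 to 4.56 log2 units. Of these, 3 were members, at 38.7, 32.1 and 21.2 FPKM in scales, and the other 4 were at 4.58 to 9.27 FPKM in scales, short of the limit of 10 FPKM. None of the 7 exceeded 0.505 FPKM in a megagametophyte library.

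In a group also chosen for its values, members lay among contigs that were present in megagametophytes. GAZW02043259, GAZW02043263 and GAZW02043264 had 22.8, 132.4 and 14.6 FPKM in scales against 2.01, 7.40 and 2.12 in bracts. Between them GAZW02043260 had 341.5 FPKM in scales, 12.6 in bracts, and 6.84 to 14.7 FPKM in the 8 megagametophyte libraries. GAZW02043258 had 66.6 FPKM in scales, 2.97 in bracts and 0.558 to 5.02 FPKM in megagametophytes. GAZW02043265, the next number after the group, had the opposite bias (-2.55 log2 units, scales minus bracts), with 0.165 FPKM in scales, 5.82 in bracts and 1.95 to 6.78 FPKM in megagametophytes.

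The members had 104 contigs with the number directly before or after that were in the table and not members themselves. Of these, 14 (13.5%) were 2 or more log2(FPKM + 1) units higher in scales than in bracts, against 1.32% of all contigs. In the other direction 3 (2.88%) were 2 units or more higher in bracts, against 2.19% of all contigs. The differences between these shares were not tested. The added 1 FPKM keeps low contigs out of both counts, which are not counts of 4-fold on linear FPKM. GAZW02016196, at 3.03 FPKM in scales and 0.0425 in bracts, differed by 1.95 units. GAZW02003305, at 0.0425 FPKM in scales and 1.45 in bracts, differed by -1.23 units. Among the 14, 7 were at 10 FPKM or more in scales and were kept out only by reaching 1 FPKM in a megagametophyte library. Of the 104 neighbours, 52 (50%) reached 1 FPKM in at least 1 of the 8 libraries, against 72.1% of all contigs.

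**Figure D5:**
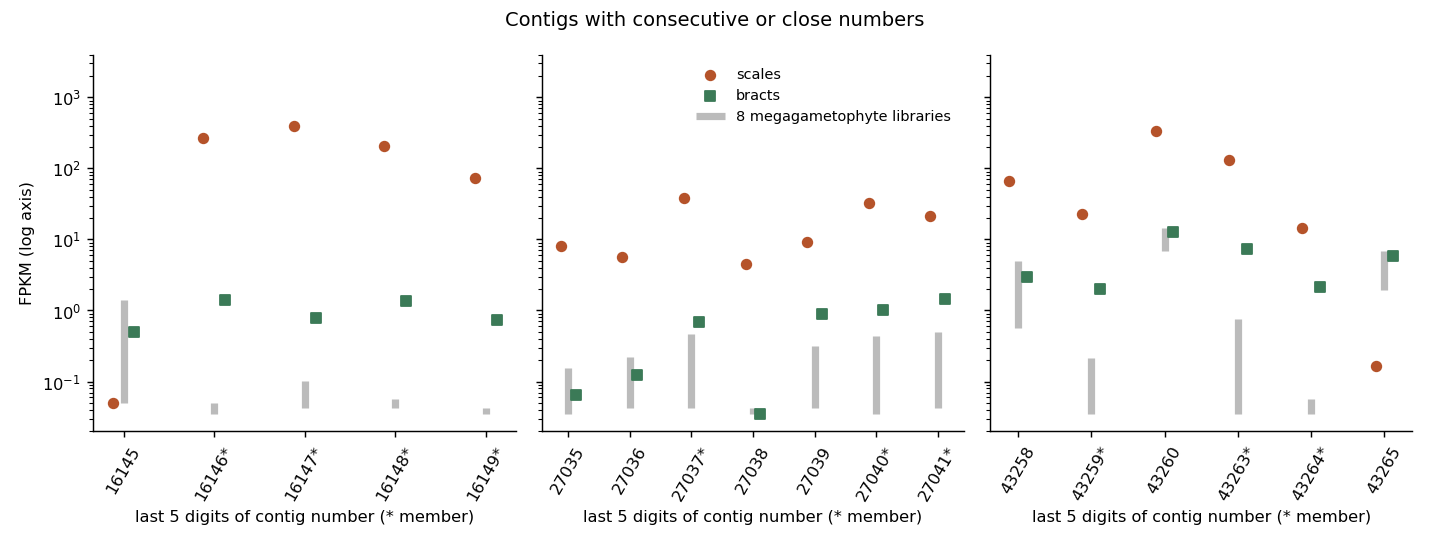
FPKM (log axis) of contigs with close numbers, named by the last 5 digits, in scales (circles), bracts (squares) and the 8 megagametophyte libraries (grey bars, lowest to highest); a star marks the scale-biased contigs described here. In the left panel 4 consecutive contigs stand at 72.5 to 400.7 FPKM in scales, in the middle one all 7 are higher in scales than in bracts, and in the right one GAZW02043260 reaches 14.7 FPKM in megagametophytes.

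Contigs lay close to each limit of the rule, both inside and outside it. At the limit of 10 FPKM in scales, GAZW02051543 and GAZW02003780 lay just inside at 10.0 and 10.1 FPKM, and GAZW02056505 and GAZW02066142 just outside at 9.85 FPKM each. At the limit on the difference, GAZW02043217 and GAZW02074324 lay inside at 2.01 and 2.03 log2 units, and GAZW02052195 and GAZW02077811 outside at 1.99 and 1.95. At the limit in megagametophytes, GAZW02030745 and GAZW02077814 lay inside with highest values of 0.905 and 0.840 FPKM, and GAZW02044618 and GAZW02033018 outside with 1.04 and 1.08 FPKM. GAZW02033018 had 232.9 FPKM in scales against 28.4 in bracts.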

How the data were processed

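What the authors deposited is a single table, 54889 contigs by 10 libraries, of logarithms taken here to be log2(FPKM + 1), since no source states their base or offset. By its name the deposited table had already been filtered for FPKM higher than 1, in libraries that are not stated. Shares of all contigs, and of contigs low in megagametophytes, are therefore shares of a filtered set. Values ran from 0.01 to 12.28, and undoing the logarithm gave 466481 to 561810 FPKM per library. RSEM 1.2.12, Bowtie 1.0.1 and, among others, Trim Galore 0.2 are named in the submitters' processing notes, without roles. Per the labels' protocols, reads were paired-end and not strand specific. Read counts and depth are unknown, so no counting intervals are given.

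Libraries were grouped by the labels, 1 per group, so p-values measure departures from a line over dates or variation between dates. Tests used limma 3.58.1 (lmFit, then eBayes with trend) under R 4.3.3 on the deposited log2 values of all contigs, pseudocount 1 FPKM. No further filter on low values was applied, since a mean of 1 FPKM would have removed every member. The threshold was a Benjamini-Hochberg adjusted p under 0.05. Residual degrees of freedom were 5 for date, 3 for pollination and 4 for the interaction. Python 3.11.15, numpy 2.4.6, scipy 1.17.1, pandas 2.3.3 and matplotlib 3.10.9 gave the rest.

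The members, the sets and the tests were chosen with earlier results of these data known. Contigs were named by a rule: in each comparison up to 2 per direction, the 2 highest, and the 2 on either side of each limit. Others are said to be chosen by their values.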

Additional observations from a re-analysis of the deposited data

How the results depend on the processing

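The number of contigs depended on the limits of the rule. It was 54 at 20 FPKM or more in scales and 168 at 5 FPKM or more, 57 at 8-fold or more over bracts and 171 at 2-fold or more. With 4-fold on linear FPKM, or with 0.5 or 2 FPKM as the limit in megagametophytes, it stayed within 1.5 times of 89. The number with no trace stayed within 1.5 times of 44 when a trace was taken from 0.07 or 0.2 FPKM.

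For date, 1 member passed, and 0 passed at a mean of at least 0.1 FPKM or on the mean of the libraries of a date, and 4 at an adjusted p under 0.1. Leaving out 1 library gave 0 to 2 members, 2 without the pollinated library of 30 June and 0 without any 1 library of 10 June or 6 July. At a limma adjusted p under 0.1, 12385 of all 54889 contigs passed. Over the whole table fewer contigs also passed without any 1 library of 10 June or 6 July. On the mean of the libraries of a date no contig of the table passed. Setting values under 0.1 FPKM to 0.1 FPKM, chosen after seeing the data, gave 1 of 45 members, against 8839 of 48901 contigs. Depth limits are unknown, since reads per library are not given. The cause of these shifts was not tested. For pollination and for the interaction 0 members passed under each of the 18 alternatives. This does not show that the states were alike. In the pollination fit the 2 libraries of a date were paired through the date term. No pairing by replicate number was possible, since the labels give none.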
